A study of Homo sapiens with 16 samples.

Results

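The GABPα intervals described here were called in every GABPα sample of a chromatin immunoprecipitation sequencing (ChIP-seq) study of the prostate cancer cell line VCaP and the T-cell leukaemia line Jurkat, which the study's design text calls lymphoma cells. They were chosen by rule from the high confidence intervals of VCaP cells treated with R1881 (methyltrienolone), a synthetic androgen. An interval was taken if it overlapped by at least 1 bp a high confidence interval in each of the other 4 GABPα samples, namely VCaP t0, VCaP vehicle and Jurkat replicates 1 and 2. This rule kept 1826 of 5987 R1881 intervals, or 30.5%, lying in 1755 parent peaks, and left 4161 other R1881 intervals. The presence of an interval in each sample is therefore what chose these sites and is not a result about them.

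GABPα is the DNA-binding subunit of GA-binding protein and pairs with GABPβ, which carries the activating domain. It belongs to the ETS family, whose members recognise sites built around a GGAA core, and it is known for binding the promoters of housekeeping genes, among them genes of mitochondrial respiration and of ribosomal proteins. ERG is another ETS factor. It is present at high level in VCaP cells because of the fusion of its gene to the androgen-responsive TMPRSS2 promoter, and the study profiled ERG in the same cell lines.

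Vehicle and R1881 cells were kept for 48 h in charcoal-stripped serum, which removes steroid hormones, and then received ethanol or 1 nM R1881. The labels do not explain t0, and they repeat the same treatment text for Jurkat cells without naming a treatment of these cells. Each VCaP condition was 1 sample per antibody, while Jurkat had 2 replicates per antibody, so the VCaP conditions had no replicates, no test was made and no p-value is given. Shares are followed by 95% Wilson intervals and differences by 95% Newcombe intervals, which cover counting error over intervals and not the error between cultures. Intervals of the same parent peak are not independent of each other. Read numbers were not in the sources used here and the depth is unknown.

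The number of high confidence intervals differed between samples, from 2851 in VCaP t0 to 6365 with vehicle, 5987 with R1881, 8288 in Jurkat replicate 1 and 9769 in Jurkat replicate 2. As a result the same sites made up different shares of each list. The t0 intervals that met a site called in all 5 samples numbered 1917, or 67.2% (65.5 to 68.9). With vehicle there were 1857 such intervals, 29.2% of that list. Jurkat replicate 1 had 1980 (23.9%) and Jurkat replicate 2 had 1978 (20.2%). When the intervals of all 5 samples were merged into 13650 sites, 1801 of them (13.2%) held an interval of every sample, 931 of 4 samples, 1001 of 3, 5820 of 2 and 4097 of a single sample. Sites present in every sample were thus more numerous than sites missing from a single sample.

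The sample that most often kept an R1881 interval from being taken was t0, which also had the fewest intervals. There were 700 R1881 intervals found in every sample but t0. Only Jurkat replicate 1 was missing for 239, only Jurkat replicate 2 for 105 and only vehicle for 2. Of the 700 intervals that lacked t0 alone, 568 (81.1%) had a t0 peak in the MACS calls, the larger lists from which the high confidence intervals were drawn. The t0 MACS scores of these peaks had a median of 185 and ran from 50.1 to 3100. MACS scores a peak by its enrichment over input, on a scale of −10 times log10 of a p-value, so they grow with library depth, and peaks under a score of 50 were not listed.

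The members just inside and just outside this boundary were as follows. The member with the lowest t0 score was chr8:96193970-96194052 (hg18, as all positions given here), 83 bp wide, with a score of 60.9 at t0, 93.5 with vehicle, 114 with R1881, 543 in Jurkat replicate 1 and 440 in Jurkat replicate 2. It was weak in all 3 VCaP samples and in the upper part of both Jurkat lists. Next came chr19:34788855-34789156, with 72.2 at t0, 887 with vehicle, 1042 with R1881, 478 in Jurkat replicate 1 and 298 in Jurkat replicate 2. Outside the rule, chr16:30992485-30992730 had a t0 MACS peak with a score of 3100 but overlapped no high confidence interval at t0. Its scores were 3100 with vehicle and R1881, 929 in Jurkat replicate 1 and 902 in Jurkat replicate 2. The second such interval, chr11:71501007-71501142, had a t0 MACS score of 2206, and 3100 with vehicle and R1881, 738 in Jurkat replicate 1 and 1135 in Jurkat replicate 2. A strong t0 MACS peak at an R1881 interval was therefore not enough for the interval to be taken. Whether these t0 peaks held a high confidence interval elsewhere was not examined. Among all other R1881 intervals, 797 (19.2%) had a MACS peak in each of the other 4 samples.

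The sites called in all 5 samples ranked high in the vehicle and R1881 lists and had more widely spread ranks in the t0 and Jurkat lists. Their median score was 909 at t0, 2050 with vehicle, 2085 with R1881, 450 in Jurkat replicate 1 and 532 in Jurkat replicate 2. The corresponding medians of the other intervals in each sample were 455, 615, 695, 361 and 298. Because scores follow depth, each was also expressed as a percentile among the high confidence intervals of its own sample. The median percentile of these sites was 60.0 at t0, 79.9 with vehicle, 78.1 with R1881, 57.0 in Jurkat replicate 1 and 69.4 in Jurkat replicate 2, against 28.2, 35.95, 35.6, 48.0 and 45.8 for the others. The difference in rank was largest in the vehicle and R1881 samples and smallest in Jurkat replicate 1. These percentiles describe the selection, since a higher score goes with being called in more samples, and they were not tested.

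**Figure D1:**
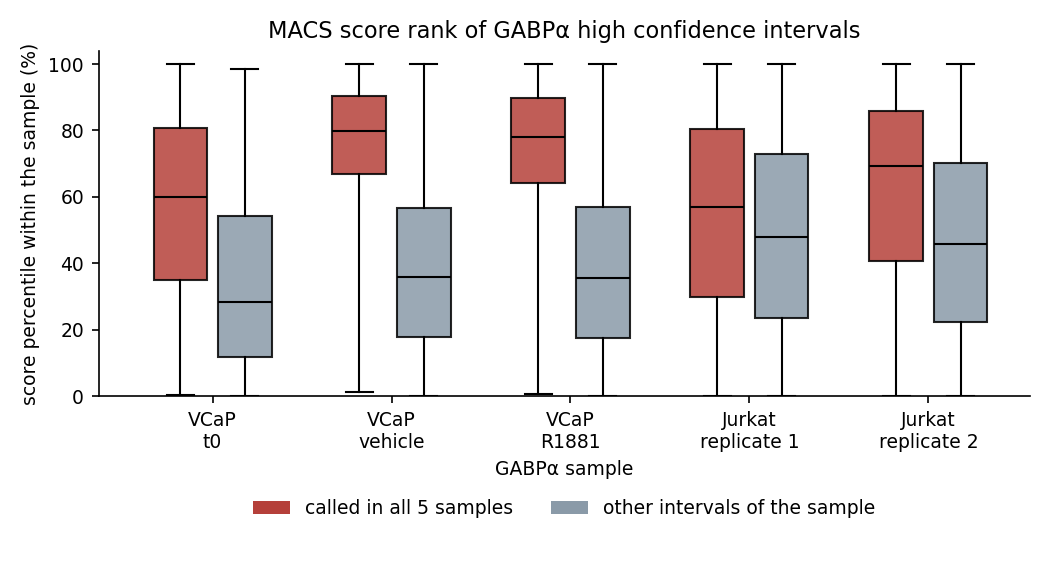
MACS score percentile (%) of GABPα high confidence intervals within each of the 5 GABPα samples, for sites called in all 5 samples and for the other intervals of that sample. Boxes give the quartiles with the median as a line and whiskers the lowest and highest value, and the medians of the shared sites were 60.0, 79.9, 78.1, 57.0 and 69.4 from left to right.

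The rank of individual sites was not high everywhere. Only 667 sites (36.5%) were above the 50th percentile in all 5 samples and 234 (12.8%) above the 75th, while 5 were below the 25th in every sample. Above the 50th percentile there were 1111 sites (60.8%) at t0, 1710 (93.6%) with vehicle, 1656 (90.7%) with R1881, 1037 (56.8%) in Jurkat replicate 1 and 1239 (67.9%) in Jurkat replicate 2. Below the 25th percentile there were 12 with vehicle and 21 with R1881, compared with 276 at t0, 368 in Jurkat replicate 1 and 249 in Jurkat replicate 2. Sites called in all 5 samples were therefore seldom low in the vehicle or R1881 lists and more often low in the other lists. These ranks depend on what else each list held. Intervals meeting these sites made up 67.2% of the t0 list, against 29.2% with vehicle and 30.5% with R1881. Among all MACS peaks the median percentiles were closer, at 89.1 for t0, 92.7 for vehicle, 93.05 for R1881, 85.9 for Jurkat replicate 1 and 89.0 for Jurkat replicate 2. A score of exactly 3100 was given to 410 R1881 intervals, of which 305 were sites called in all 5 samples. The order among the strongest sites is therefore not resolved. The highest R1881 score was 3233, and intervals at 3100 shared a percentile of 95.7, below those with higher scores.

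Recovery in the other samples rose with the R1881 score. The R1881 intervals were put into 10 classes of equal size by score. From the lowest to the highest class, the share called in all 5 samples was 1.84, 1.00, 2.17, 8.01, 15.4, 30.8, 44.4, 61.5, 66.1 and 73.8%. In the lowest class, 71.1% of intervals were found with vehicle, 4.01% at t0, 12.0% in Jurkat replicate 1 and 11.5% in Jurkat replicate 2. In the highest class these shares were 97.2, 82.6, 88.1 and 89.5%. The vehicle sample, which shared its input library with the R1881 sample, recovered most intervals at any score, whereas t0 and the Jurkat replicates recovered few intervals of the lowest classes. Intervals missing from at least 1 sample occurred in every class, the highest included.

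**Figure D2:**
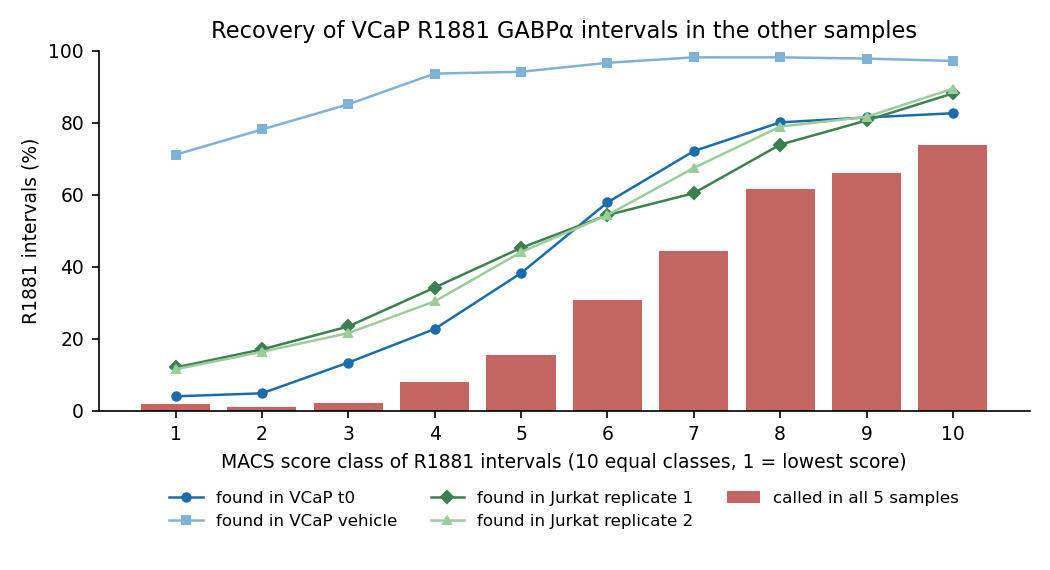
Share (%) of VCaP R1881 GABPα intervals in each of 10 equal classes of their MACS score that were called in all 5 samples (bars) or found in each other sample (lines). The share called in all 5 samples was 1.84% in the lowest and 73.8% in the highest class, and the vehicle line stayed above 71% throughout.

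Scores of these sites were more strongly correlated within a cell line than between the lines. Across the 1826 sites Spearman's rho was 0.944 between vehicle and R1881 and 0.783 between the Jurkat replicates. It was 0.625 between t0 and vehicle and 0.629 between t0 and R1881. Between VCaP and Jurkat samples it ran from 0.266 (t0 and Jurkat replicate 1) to 0.451 (t0 and Jurkat replicate 2). These are descriptions across sites, which are not replicates, and both closest pairs shared 1 input library each, whose part in the correlation was not tested. The percentile of a site differed by a median of 3.04 points between vehicle and R1881 and 10.1 between the Jurkat replicates. It differed by 18.8 points between t0 and vehicle and 17.8 between t0 and R1881. Between VCaP and Jurkat samples it differed by 16.1 to 22.9 points. These differences include shifts of the whole set, whose median percentile was 60.0 at t0, 79.9 with vehicle and 78.1 with R1881. By rho, t0 was closer to vehicle and R1881 than to either Jurkat replicate.

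At 593 sites (32.5%) the percentile in each VCaP sample was above that in each Jurkat replicate, and at 289 (15.8%) each Jurkat replicate was above each VCaP sample. The remaining 944 had overlapping percentiles. The site with the widest separation in favour of VCaP was chr9:35802076-35802492, with scores of 1435 at t0, 2127 with vehicle, 2201 with R1881, 53.0 in Jurkat replicate 1 and 64.7 in Jurkat replicate 2. It stood above the 80th percentile in each VCaP sample and below the 3rd in both Jurkat replicates. Its interval was 413 bp wide at t0, 395 with vehicle, 417 with R1881 and 423 in both Jurkat replicates, so that its width was much the same where its score was low. The next was chr19:9799353-9799856, with 2842 at t0, 2819 with vehicle, 2641 with R1881, 61.3 in Jurkat replicate 1 and 110 in Jurkat replicate 2. The third was chr10:1092478-1093014, with 1507 at t0, 3172 with vehicle, 3100 with R1881, 98.8 in Jurkat replicate 1 and 82.6 in Jurkat replicate 2.

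The widest separation in favour of Jurkat was at chr11:7555755-7555979. Its scores were 223 at t0, 587 with vehicle, 502 with R1881, 1945 in Jurkat replicate 1 and 1968 in Jurkat replicate 2. This site was within the highest 5% of both Jurkat lists and in the lower part of all 3 VCaP lists. The weak VCaP site on chromosome 8 given above came next. The third was chr11:67614798-67615134, with 367 at t0, 406 with vehicle, 734 with R1881, 1147 in Jurkat replicate 1 and 1390 in Jurkat replicate 2.

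The sites that ranked highest by their lowest percentile were strong in all samples, with 21 tied because of the R1881 score of 3100, of which 5 were taken in order of position. At chr1:159390024-159390834, 811 bp wide with R1881, the score was 3100 in each of the 5 samples. At chr1:63761364-63761927 it was 2922 at t0, 3100 with vehicle and R1881, 2022 in Jurkat replicate 1 and 3100 in Jurkat replicate 2. All of these values lay in the highest 5% of their lists. At chr10:53129128-53129888 it was 3100 in the 3 VCaP samples, 2396 in Jurkat replicate 1 and 3100 in Jurkat replicate 2. At chr1:167603623-167604224 it was 3100 in the 3 VCaP samples, 1849 in Jurkat replicate 1 and 2827 in Jurkat replicate 2. At chr11:85690663-85691154 it was 3100 in the 3 VCaP samples, 2246 in Jurkat replicate 1 and 1860 in Jurkat replicate 2. None of the 5 had an ERG peak within 5 kb in any sample. The same held for 1653 of the 1826 sites (90.5%) and for 80.1% of the other R1881 intervals.

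The sites with the lowest percentile in any sample were held in the set by a Jurkat call near the lowest listed score. At chr2:32435239-32435845 the score was 834 at t0, 2272 with vehicle, 2492 with R1881, 328 in Jurkat replicate 1 and 50.3 in Jurkat replicate 2. At chr15:88609423-88610095 it was 995 at t0, 1315 with vehicle, 1652 with R1881, 50.5 in Jurkat replicate 1 and 95.3 in Jurkat replicate 2. At chr4:144325447-144325696 it was 513 at t0, 1925 with vehicle, 1765 with R1881, 50.9 in Jurkat replicate 1 and 165 in Jurkat replicate 2. In each case all other samples had a higher score. At the chr15 and chr4 sites, however, Jurkat replicate 2 was also low in its list, at percentiles 9.69 and 23.3.

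Sites called in all 5 samples were wider than the other intervals. Each high confidence GABPα interval had exactly the bounds of a region called by SWEMBL, the second peak caller of the study, and carried the score of the MACS peak around it. The median width of these sites was 268 bp at t0, 380 with vehicle, 379 with R1881, 365 in Jurkat replicate 1 and 350 in Jurkat replicate 2. The other intervals had medians of 194.5, 175, 173, 164 and 187 bp. The interquartile ranges of the 2 sets did not overlap with vehicle, R1881 or in either Jurkat replicate, as the plot of widths shows, while they did at t0. A wider interval is also more likely to meet an interval of another sample, so the rule itself bears on this difference.

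**Figure D3:**
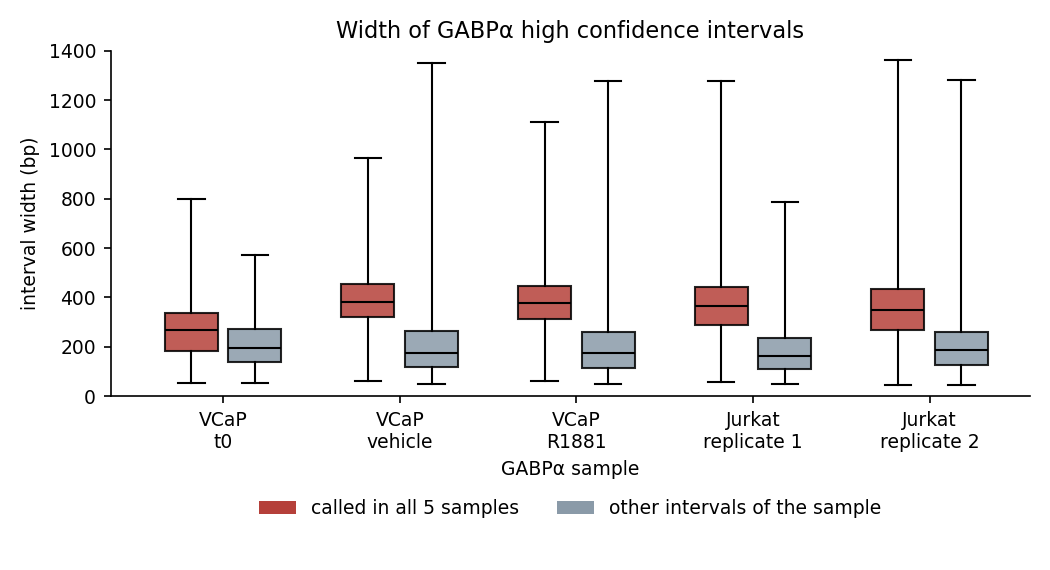
Width (bp) of GABPα high confidence intervals in each of the 5 GABPα samples, for sites called in all 5 samples and for the other intervals of that sample. Boxes give the quartiles with the median as a line and whiskers the lowest and highest value, and the shared sites had medians of 268, 380, 379, 365 and 350 bp from left to right.

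Width and score rose together, and the difference in width was smaller within each score quartile than over all intervals of the sample, to a degree that depended on the sample. Within quartiles of the R1881 score, from lowest to highest, medians were 177, 275, 340 and 421 bp for sites called in all 5 samples against 125, 188, 276.5 and 266 bp for the others. In Jurkat replicate 1 the intervals that met such a site were 317, 337, 361 and 395.5 bp wide from the lowest to the highest quartile of that sample's score, compared with 128, 149, 173 and 247 bp. In Jurkat replicate 2 they were 224, 289.5, 323 and 413 bp against 146, 169, 207 and 287 bp. At t0 there was little or no difference at equal score, with 146.5, 203, 273 and 348 bp against 146, 216, 276 and 330 bp.

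In Jurkat cells, the share of intervals that met a site called in all 5 samples differed more between width quartiles than between score quartiles. In the highest score quartile of Jurkat replicate 1, 29.7% of intervals met a site called in all 5 samples, and in the lowest 19.3%. In the highest width quartile of the same list 65.3% did, and in the lowest 7.63%. In Jurkat replicate 2 the shares were 34.4 and 11.2% for score, and 49.7 and 8.23% for width. With R1881 both measures ordered the intervals alike, from 1.40 to 69.1% by score and from 2.34 to 74.5% by width.

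The bounds of these sites lay close together in the different samples. For 1802 sites the intervals of all 5 samples had a stretch in common, with a median length of 247.5 bp, and for 24 there was no base common to all. The common stretch covered at least 50% of the R1881 interval at 1364 sites (74.7%). The midpoint of the interval moved by a median of 14.5 bp between vehicle and R1881 and 16 bp between the Jurkat replicates, and by 24.5 bp between R1881 and t0, 23.5 bp between R1881 and Jurkat replicate 1 and 26 bp between R1881 and Jurkat replicate 2. Thus 91.1% of midpoints were within 50 bp for vehicle and R1881, and 81.2 and 74.6% for R1881 and the Jurkat replicates. Midpoints over 200 bp apart were found at 6 to 19 sites, depending on the pair of samples. Overlap of the intervals was part of the rule and limits these distances from above.

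Most parent peaks held a single site. Of 1755 parent MACS peaks, 1691 had 1 site called in all 5 samples, 61 had 2, and 1 each had 3, 4 and 6, so that 64 (3.65%, 2.87 to 4.63) held 2 or more. Counting every R1881 interval, 267 of these parents (15.2%, 13.6 to 17.0) were split into 2 or more pieces, against 400 of 3468 parents without such a site (11.5%, 10.5 to 12.6). Of all 5223 R1881 parents, 87.2% held a single interval. A parent with more pieces had more chances to hold a site, so this difference is in part built in. It was not compared at equal score or width. The share with 2 or more sites depended on t0: when t0 was left out of the rule, it was 9.84%. In the other samples, the share of parent MACS peaks with 2 or more intervals that met such a site was 8.18% at t0, 4.90% with vehicle, 11.6% in Jurkat replicate 1 and 11.2% in Jurkat replicate 2. Apart from pieces of a parent, the sites were seldom close to each other, with 16 of 1730 neighbouring pairs at most 5 kb apart and 42 at most 10 kb apart.

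Of the 267 parents split with R1881, only 64 held 2 or more sites called in all 5 samples. The rule selected these pairs by requiring each piece to meet an interval in every sample, so that recurrence of the split is in part built in and is given as a description. Of the 61 parents with a pair, the gap between the sites had a median of 47 bp with R1881 and ran from 1 to 1819 bp. The pair was also separate in all of the other 4 samples at 43 parents and in none of them at 8. The middle of the gap moved by a median of 6 bp from R1881 to vehicle, 22.25 bp to t0, 16.5 bp to Jurkat replicate 1 and 20 bp to Jurkat replicate 2. At 7 parents the gap had identical bounds in all 5 samples, to the base pair and in both cell lines, with lengths from 2 to 77 bp. Named after their values were seen, these included gaps of 47 bp in the parents chr5:21495010-21495668 and chr6:58395289-58396063 and a gap of 2 bp in chr7:101790631-101791263. In contrast, only 3 of the 1826 sites themselves had identical bounds in all 5 samples.

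The parent with the most sites was chrX:2556518-2561003, which was cut into 15 R1881 intervals, 6 of them called in all 5 samples. Its score was 2138 at t0 and 3100 in each of the other 4 samples. Several of its pieces had the same width in different samples. The piece chrX:2558766-2558857 was 92 bp wide with vehicle and R1881 and in both Jurkat replicates and 89 bp at t0, and the piece chrX:2558984-2559055 was 72 bp wide in the same 4 samples and 69 bp at t0. Its first piece, chrX:2556904-2557592, differed more, with 184 bp at t0, 416 with vehicle, 689 with R1881, 1277 in Jurkat replicate 1 and 1362 in Jurkat replicate 2.

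Chromosome 19, the most gene-dense human chromosome, held more of these sites than any other. It carried 214 of the 1826 sites (11.7%, 10.3 to 13.3) and 346 of the other R1881 intervals (8.32%), a difference of 3.40 points (1.76 to 5.15). Of all R1881 intervals, 9.35% lay on this chromosome. Thus 38.2% of the R1881 intervals on chromosome 19 were called in all 5 samples. Among all high confidence intervals, chromosome 19 took 11.3% at t0, 9.55% with vehicle, 6.83% in Jurkat replicate 1 and 5.82% in Jurkat replicate 2. The sites called in all 5 samples make up most of the t0 list, so their share and that of t0 are not independent. The difference went with the score. Within R1881 score quartiles from lowest to highest, chromosome 19 held 4.76, 9.40, 10.6 and 12.9% of the shared sites and 6.71, 7.12, 10.98 and 11.9% of the others, with no constant direction. On chromosome 18, 16.1% of 87 R1881 intervals were called in all 5 samples, the lowest share of any numbered chromosome, followed by 12 of 60 on chromosome 21 and 19 of 93 on chromosome 13.

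**Figure D4:**
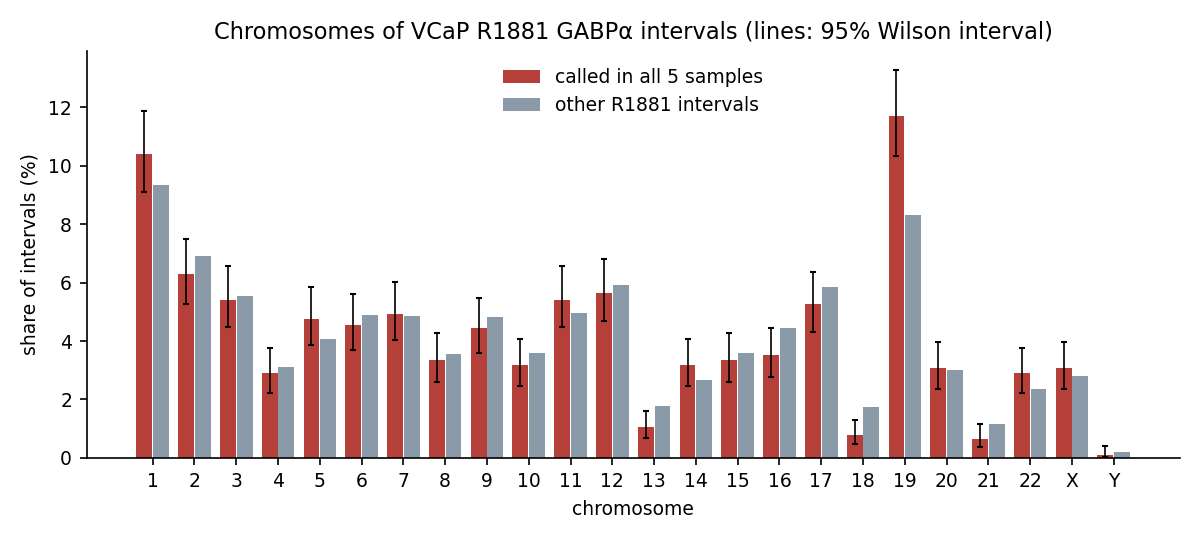
Share (%) of the VCaP R1881 GABPα intervals lying on each chromosome, for the sites called in all 5 samples (lines give 95% Wilson intervals) and for the other R1881 intervals. Chromosome 19 held 11.7% of the shared sites and 8.32% of the others.

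ERG peaks were rare near these sites. The labels and the study's methods name different antibodies for the ERG immunoprecipitation, so the ERG peaks are described as labelled. Within 5 kb of a site called in all 5 samples there was a MACS peak of VCaP R1881 ERG at 91 of 1826 sites (4.98%, 4.08 to 6.08), compared with 612 of 4161 other R1881 intervals (14.7%) and 11.7% of all R1881 intervals. The difference, shared minus other, was -9.72 percentage points (-11.2 to -8.21). For vehicle ERG the shares were 57 sites (3.12%) and 10.4% of the others, against 8.20% of all. For t0 ERG they were 26 sites (1.42%) and 2.04%, against 1.85% of all, a difference whose interval included 0. By direct overlap with t0 ERG peaks the shares were 0.274 and 1.01%, a difference of -0.736 points (-1.12 to -0.286). The t0 ERG peaks had low scores, with a median of 57.5, and 216 of them reached 100. The t0 ERG sample had 2 high confidence intervals. The ERG lists themselves differed in length and held 6963 MACS peaks for t0, 19504 for vehicle and 23947 for R1881 cells.

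The direction of the R1881 ERG difference was kept at equal GABPα score but its size was not. From the lowest to the highest quartile of the R1881 GABPα score, an ERG peak of the R1881 sample lay within 5 kb of 19.05, 11.4, 5.63 and 3.38% of sites called in all 5 samples and of 21.7, 14.6, 8.24 and 4.75% of the others. Both sets thus had fewer ERG peaks as the GABPα score rose, and the interval of each of the 4 differences included 0. For vehicle ERG the differences were 4.14 (-7.40 to 25.2) and 0.06 points (-4.48 to 6.36) in favour of the shared sites in quartiles 1 and 2. Quartile 1 held only 21 shared sites. In quartiles 3 and 4 the differences were -2.30 (-4.25 to -0.26) and -1.83 points (-4.06 to -0.13).

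ERG peaks of VCaP R1881 and vehicle near these sites overlapped them less often than those near the other R1881 intervals did. This was not compared at equal GABPα score. Of the 91 sites with an R1881 ERG peak within 5 kb, 32 (35.2%) overlapped it, 12 were up to 1 kb away and 47 were farther. Of the 612 other intervals with such a peak, 489 (79.9%) overlapped it. The highest ERG score within 5 kb had a median of 98.8 at the shared sites and 179 at the others, compared with 77.5 over all R1881 ERG peaks. For vehicle ERG 23 of 57 shared sites (40.4%) overlapped the peak, against 332 of 434 others (76.5%). Of the 1826 sites 1653 (90.5%) had no ERG peak within 5 kb in any of the 5 ERG samples, and of the others 80.1%.

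The share of R1881 intervals near ERG went with their presence in Jurkat. Presence in Jurkat replicate 1 also rose with the R1881 score, from 12.0% in the lowest class to 88.1% in the highest. The share near R1881 ERG fell with that score, as given above. The following shares were not compared at equal score. An R1881 ERG peak was within 5 kb of 19.1% (17.6 to 20.6) of the 2682 R1881 intervals found in neither Jurkat replicate. It was near 6.32% (4.76 to 8.35) of the 712 found in 1 replicate and 5.67% (4.84 to 6.63) of the 2593 found in both. Presence with vehicle also went with a lower share than the 19.1%. Among the 2682 found in neither Jurkat replicate, the 2241 found with vehicle had an R1881 ERG peak within 5 kb in 13.7% of cases. Those found in both Jurkat replicates but not called in all 5 samples had one in 7.30% (5.67 to 9.36) of 767 cases, against the 4.98% of the sites called in all 5, a difference of -2.32 points (-4.57 to -0.35) that was not compared at equal score.

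Within 5 kb, ERG peaks of Jurkat cells were about as frequent near these sites as near the other R1881 intervals. Jurkat replicate 1 had an ERG peak within 5 kb of 31 sites (1.70%) and of 1.75% of the others, against 1.74% of all. Jurkat replicate 2 had one near 58 sites (3.18%) and 3.73% of the others, against 3.56% of all. Both differences had intervals that included 0, from -0.73 to 0.73 and from -1.49 to 0.50 points. By direct overlap both intervals also included 0. For ERG peaks with a score of at least 100, the shares in replicate 2 were 0.767 and 1.42%. That difference was -0.65 points (-1.16 to -0.05), while in replicate 1 its interval included 0.

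The picture differed when the Jurkat GABPα intervals were taken as the base, a comparison chosen after seeing the data. In Jurkat replicate 1 an ERG peak of the same replicate number lay within 5 kb of 30 of 1980 GABPα intervals that met a site called in all 5 samples (1.52%, 1.06 to 2.15). It lay near 898 of the 6308 other intervals (14.2%, 13.4 to 15.1), and near 11.2% of all. In Jurkat replicate 2 the counts were 63 of 1978 (3.19%, 2.50 to 4.05) and 2368 of 7791 (30.4%, 29.4 to 31.4), with 24.9% of all. The differences were -12.7 points (-13.7 to -11.7) and -27.2 points (-28.4 to -25.9). With the ERG sample of the other replicate number the shares were 3.03 and 26.7% for replicate 1 (21.0% of all), and 1.67 and 17.5% for replicate 2 (14.3% of all).

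**Figure D5:**
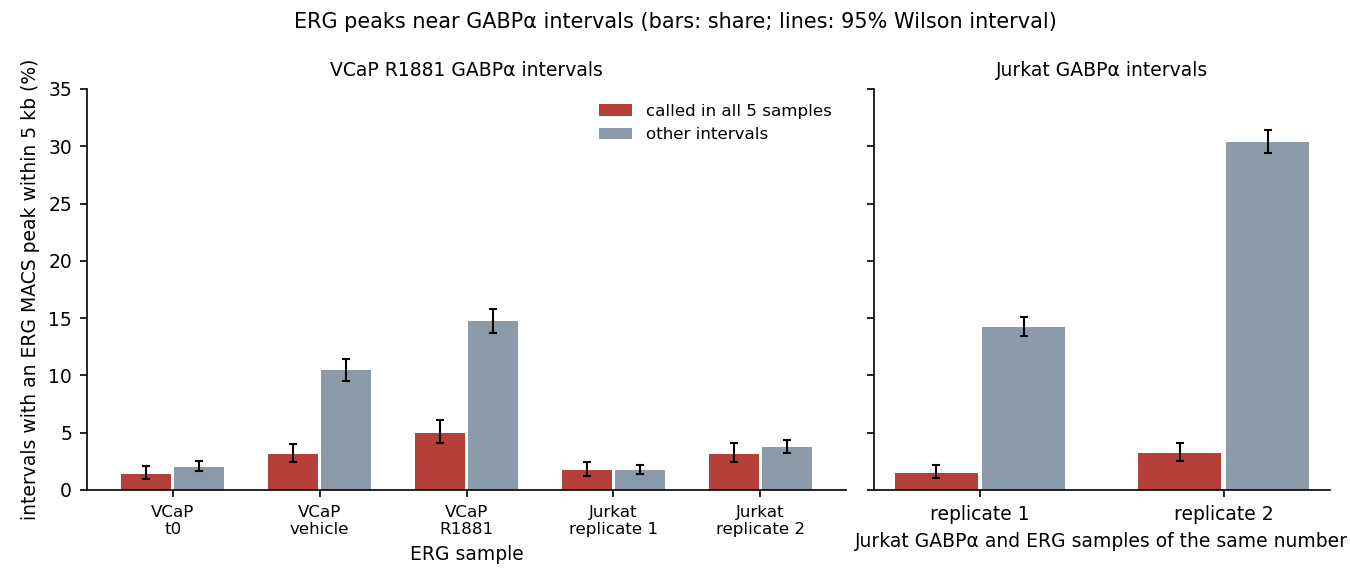
Share (%) of GABPα intervals with an ERG MACS peak within 5 kb, with 95% Wilson intervals as lines. The left panel takes VCaP R1881 intervals against each of the 5 ERG samples and the right panel Jurkat intervals against the ERG sample of the same number, where the sites called in all 5 samples were at 1.52 and 3.19% and the other intervals at 14.2 and 30.4%.

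The Jurkat difference was also negative in each quartile of the GABPα score, and here none of the intervals of the differences included 0. From lowest to highest quartile the shares in replicate 1 were 1.00, 1.95, 1.39 and 1.62% for intervals that met a shared site, against 8.61, 14.0, 17.1 and 17.9% for the others. In replicate 2 they were 2.92, 3.48, 2.24 and 3.69% against 24.0, 30.9, 35.6 and 32.1%. Among the intervals not meeting a shared site, the share near ERG was lowest in the lowest score quartile of both replicates, whereas for the R1881 intervals and VCaP R1881 or vehicle ERG it was lowest in the highest quartile. Intervals directly overlapping an ERG peak were 4 (0.202%) of those meeting a shared site and 630 (9.99%) of the others in replicate 1, and 14 (0.708%) and 1773 (22.8%) in replicate 2.

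In Jurkat cells, too, the share near ERG went with the presence of the interval in the other cell line, again without comparison at equal score. In replicate 1, 17.1% of the 5064 GABPα intervals found in no VCaP sample had an ERG peak of that replicate within 5 kb, 5.43% of the 258 found in 1 VCaP sample, 1.81% of the 994 found in 2 and 1.57% of the 1972 found in 3. In replicate 2 these shares were 35.3% of 6509, 14.8% of 216, 3.72% of 915 and 3.10% of 2129. The difference between intervals found in 3 and in 2 VCaP samples was -0.24 points (-1.37 to 0.69) in replicate 1 and -0.62 points (-2.19 to 0.72) in replicate 2.

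Of the 1826 sites called in all 5 samples, 4 overlapped an ERG peak of VCaP R1881 and of both Jurkat replicates. Overlap with an ERG peak of Jurkat replicate 1 was rare in both sets. It was found at these 4 sites (0.219%) and at 10 of the 4161 other R1881 intervals (0.240%). At chr10:17078320-17078573 the overlapping ERG peak had a score of 253 in VCaP R1881, 509 in Jurkat replicate 1 and 268 in Jurkat replicate 2. At chr4:74307550-74307875, one of the strongest GABPα sites of Jurkat with a score of 3100 in both replicates, the ERG scores were 367, 56.0 and 117. The site at chr11:7555755-7555979, which ranked far higher in Jurkat than in VCaP for GABPα, had ERG scores of 161, 60.0 and 65.7. At chr2:65501468-65501698 they were 82.8, 50.1 and 70.2. At t0 none of the 4 had an ERG peak within 5 kb, as at most of the 1826 sites, of which 26 (1.42%) had one.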

How the data were processed

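The authors used BWA 0.5.5 to align reads to the human genome build hg18, removed duplicates and alignments of low quality, and called peaks per sample against input with MACS (version not given in the sources used here) and SWEMBL. The deposited score of a MACS peak or high confidence interval is −10 times the log10 of its p-value. According to the track lines, vehicle and R1881 shared 1 input per antibody and so did the Jurkat replicates. Peak files of the 6 input samples were not analysed here.

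Overlaps (at least 1 bp), distances, percentiles and intervals were computed with Python 3.11.15, NumPy 2.4.6, pandas 2.3.3 and SciPy 1.17.1, and the overlap functions were checked on simulated intervals with bedtools 2.31.1. Where several intervals of a sample met a site, its score was that of the highest-scoring one and its width and midpoint those of the one nearest in midpoint. Individual sites were named by rules on lowest percentile, separation of the cell lines, ERG overlap in VCaP R1881 and both Jurkat replicates, number of sites per parent, and t0 score. Members, rules and lists were chosen with earlier results of these data known. No genome or annotation of hg18 was used, so neither genes nor sequences are given. Alternatives covered overlap, ERG distance and list, score limits and classes, base sample, whole MACS peaks, merged sites, and leaving out a sample. Those on Jurkat intervals, width quartiles and identical bounds were chosen after seeing the data.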

Additional observations from a re-analysis of the deposited data

How the results depend on the processing

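The number of sites called in all 5 samples stayed within 1.5 times of 1826 under all 13 alternatives, from 1600 with a minimum score of 100 to 2623 when any MACS peak counted in the other 4 samples, and it was 1828 to 2526 with a sample left out. The share near R1881 ERG was 1.75% by overlap, 2.41% within 1 kb, 10.7% within 10 kb, 0.931% for high confidence ERG intervals and 2.46% for ERG scores of at least 100. The difference from other intervals was -4.93 and -7.89 points under the last pair of settings, and -2.70, -3.20, -2.61 and -1.37 points in the GABPα score quartiles. For vehicle ERG the difference reversed to 4.14 and 0.0592 points in the first and second quartiles, with intervals that included 0. The median width was 1321 bp for whole MACS peaks and 337 to 379 bp with a sample left out. The share of parents with 2 or more sites was 8.18% at t0, 4.90% with vehicle, 11.6 and 11.2% in the Jurkat replicates, and 3.21 to 9.84% with a sample left out, the highest without t0. Median percentiles among all MACS peaks were 89.1 at t0, 92.7 with vehicle, 93.05 with R1881, 85.9 in Jurkat replicate 1 and 89.0 in Jurkat replicate 2. Offsets of MACS midpoints from R1881 were 82 bp for t0, 53 for vehicle, and 102 and 105.25 for the Jurkat replicates. With Jurkat intervals as the base, the ERG difference was -7.61, -15.8 and -16.2 points in quartiles 1, 3 and 4 of replicate 1, -9.79 by overlap and -23.6 with the other ERG replicate, and in replicate 2 it was -21.1 and -33.4 points in quartiles 1 and 3, -22.0 by overlap and -15.8 with the other ERG replicate. The cause of these changes was not tested. No paired analysis was possible because no result comes from a test. Unknown depth and 1 sample per VCaP condition limit all comparisons.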
